A study of Rattus norvegicus with 36 samples.

Results

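Immediate early genes are transcribed within minutes of synaptic stimulation and fall back within hours, and 6 of them were followed here in the dorsal striatum of rats killed a day after saline or cocaine: Fos (ENSRNOG00000008015), Junb (ENSRNOG00000042838), Egr1 (ENSRNOG00000019422), Nr4a1 (ENSRNOG00000007607), Arc (ENSRNOG00000043465) and Dusp1 (ENSRNOG00000003977). The genes were taken by Ensembl identifier, as 6 of 32402 gene rows in the count files, and were chosen with earlier results of these data known. All 6 had enough counts to be tested, among 15884 tested genes.

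RNA-seq was performed on pools of striatal RNA from male Sprague-Dawley rats, 8 weeks old, with each pool made from the tissue of a pair of rats, to ask what a last day of cocaine and repeated cocaine each leave behind in the striatum. All rats were injected intraperitoneally in daily binges over successive days. The Sal-Sal group received 15 saline injections. The Sal-Coc group is labelled as having 13 saline and then 3 cocaine injections, a sum above the 15 injections of Sal-Sal, although the study's methods describe the same schedule for all groups. The Coc-Coc group received 15 cocaine injections. Each group had 3 pools, numbered 5, 6 and 7, and different rats made up the pools that share a number. Each pool was present as 4 technical replicates, which were summed, so 36 samples gave 9 pools. The labels name the tissue as dorsal striatum, whereas their extraction text names both nucleus accumbens and caudate putamen. The identity of the tissue could not be checked against marker genes, since the files pair no gene names with identifiers.

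In striatal projection neurons, dopamine and glutamate receptors drive immediate early transcription through kinase cascades that end on the factors CREB and SRF. Fos and Junb are subunits of the AP-1 transcription factor, Egr1 is a zinc finger transcription factor and Nr4a1 is an orphan nuclear receptor. Arc acts at the synapse, where it promotes the internalisation of AMPA receptors, and Dusp1 is a phosphatase that switches off MAP kinases. All are known as early responders to cocaine in the striatum, with transcripts that are short lived. In tissue RNA such as this, fewer cells of a type and less RNA per cell cannot be told apart.

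The 250 bases before the start site are shown for genes with a window in the RefSeq promoter set used here (assembly GRCr8). They are shown because CREB and SRF sites are known for this class of gene. Windows were present for Nr4a1, Dusp1, Egr1 and Junb. Fos and Arc had no window in that set. Sequences run 5′ to 3′ on the strand of the gene and end at the base before the start. Capitals mark the CRE half-site, TGACG or its reverse complement CGTCA, and the CArG box, the binding motif of SRF. The CArG box was searched as CCWWWWWWGG, with W for A or T. Only exact matches are marked, so sites that depart from a pattern by a base are not.
Nr4a1, chr7:134259888-134260137, plus strand: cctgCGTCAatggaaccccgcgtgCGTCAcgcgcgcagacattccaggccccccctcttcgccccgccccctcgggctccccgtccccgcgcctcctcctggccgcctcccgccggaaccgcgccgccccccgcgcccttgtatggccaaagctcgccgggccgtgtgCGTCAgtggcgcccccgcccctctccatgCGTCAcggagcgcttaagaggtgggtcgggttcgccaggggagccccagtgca
Dusp1, chr10:17184603-17184852, plus strand: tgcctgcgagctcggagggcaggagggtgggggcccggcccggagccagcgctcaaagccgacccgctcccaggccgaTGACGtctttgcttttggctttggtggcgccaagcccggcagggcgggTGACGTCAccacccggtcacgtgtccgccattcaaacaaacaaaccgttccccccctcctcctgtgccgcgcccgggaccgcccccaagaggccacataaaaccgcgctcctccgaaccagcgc
Egr1, chr18:26736828-26737077, plus strand: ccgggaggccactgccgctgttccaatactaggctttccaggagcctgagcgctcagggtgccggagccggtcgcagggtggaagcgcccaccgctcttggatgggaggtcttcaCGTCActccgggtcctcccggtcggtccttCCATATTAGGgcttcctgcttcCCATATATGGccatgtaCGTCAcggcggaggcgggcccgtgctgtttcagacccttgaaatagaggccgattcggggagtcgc
Junb, chr19:40080876-40081125, plus strand: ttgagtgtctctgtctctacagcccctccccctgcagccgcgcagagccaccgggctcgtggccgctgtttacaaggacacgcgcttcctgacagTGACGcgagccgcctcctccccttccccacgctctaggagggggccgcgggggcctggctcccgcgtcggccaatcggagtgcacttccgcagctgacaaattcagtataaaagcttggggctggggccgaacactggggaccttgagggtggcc
The CRE half-site was present in 4 of 4 windows, against 18.2% of 33469 RefSeq promoter windows of the same length, searched on both strands. Nr4a1 had 4 half-sites, Egr1 had 2 and Junb had 1. Dusp1 had 3, and a pair of these overlapped as the full palindrome TGACGTCA at 124 to 117 bases before the start. That full CRE was held by 1.59% of all windows. An exact CArG box, found in 1.5% of windows, occurred in Egr1 alone among the 4 genes, at 105 to 96 and at 83 to 74 bases before the start. The motif bound by EGR proteins, GCGGGGGCG, was present in Nr4a1 and in 2.45% of windows, and TATAAA in Junb and in 12.9%. The AP-1 motif TGANTCA was in 0 of the 4 windows and in 6.34% of all. The windows compared were alike in length only and were not matched for base composition. These matches describe letters in a window and not the binding of a factor.

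Total counts per pool ran from 29870775 to 39493867, and 3 counts corresponded to between 0.076 and 0.1 CPM (counts scaled to a library of 1e+06), far below the level of any of the 6 genes. Pool 5 of Coc-Coc stood apart from the other pools over all genes. It lay at 50.6 on the first principal component, which held 29.05% of the variance, against -11.3 to -0.66 in the remaining pools. Its best Spearman correlation with another pool was 0.9875, whereas each of the remaining pools reached at least 0.995. Fold changes in the comparisons with Coc-Coc, correlations and the spread within Coc-Coc are given with and without it. For the 6 genes, technical replicates within a pool varied by about as much as sampling alone gives. The mean chi-square statistic over 54 pairs of gene and pool was 0.957 for each degree of freedom, with 3 pairs at an unadjusted p under 0.05, and the highest of 4 technical replicates exceeded the lowest by at most 1.298-fold.

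Fos, the partner of Jun proteins in AP-1, had 42.5, 22.8 and 22.9 CPM in Sal-Sal pools 5, 6 and 7, 9.87, 13.6 and 13.9 CPM in those of Sal-Coc, and 14.1, 26.9 and 13.8 CPM in those of Coc-Coc. Every Sal-Coc pool was below every Sal-Sal pool, and Coc-Coc pool 6 lay among the saline pools. Group means were 29.4 ± 11.4, 12.4 ± 2.22 and 18.3 ± 7.48 CPM (SD, n = 3 pools each). Junb, an AP-1 subunit with weaker activating power than Jun, had 114.8, 82.5 and 74.7 CPM in Sal-Sal, 42.2, 67.6 and 72.3 CPM in Sal-Coc, and 41.6, 119 and 53.8 CPM in Coc-Coc, again by pools 5, 6 and 7. The Sal-Coc pools were all below the Sal-Sal pools, by a small margin at the nearest pair, while Coc-Coc held both the lowest and the highest of the 9 pools. Group means of Junb were 90.7 ± 21.3, 60.7 ± 16.2 and 71.5 ± 41.7 CPM.

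Egr1, which binds GC-rich sites in the promoters of many neuronal genes, had 225, 219 and 189 CPM in Sal-Sal, 145, 138 and 176 CPM in Sal-Coc, and 79.7, 247 and 125 CPM in Coc-Coc. Saline pools were close to each other and above every Sal-Coc pool. The Coc-Coc pools spanned the whole range of the other groups and beyond. Group means of Egr1 were 211 ± 19.2, 153 ± 20.4 and 150.3 ± 86.4 CPM. Nr4a1 had 171, 113 and 101 CPM in Sal-Sal, 53.3, 67.6 and 93.0 CPM in Sal-Coc, and 49.6, 156 and 53.2 CPM in Coc-Coc. The Sal-Coc pools were below the Sal-Sal pools, and in Coc-Coc pools 5 and 7 were low while pool 6 was second only to saline pool 5. Group means of Nr4a1 were 128 ± 37.6, 71.3 ± 20.1 and 86.2 ± 60.2 CPM.

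Arc had 257, 206 and 181 CPM in Sal-Sal, 73.2, 107 and 159 CPM in Sal-Coc, and 62.3, 310.0 and 90.1 CPM in Coc-Coc. Sal-Coc lay below Sal-Sal without overlap, and the Coc-Coc pools included the lowest and the highest pool of all. Group means of Arc were 215 ± 38.5, 113 ± 43.0 and 154 ± 136 CPM. Dusp1 had 83.8, 68.2 and 47.6 CPM in Sal-Sal, 62.3, 66.8 and 50.7 CPM in Sal-Coc, and 71.8, 94.9 and 50.3 CPM in Coc-Coc. All 3 groups of Dusp1 overlapped, and pool 7 was the lowest pool in each. Group means of Dusp1 were 66.6 ± 18.2, 59.9 ± 8.28 and 72.3 ± 22.3 CPM. Levels were not compared between genes, because no transcript lengths were used.

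**Figure D1:**
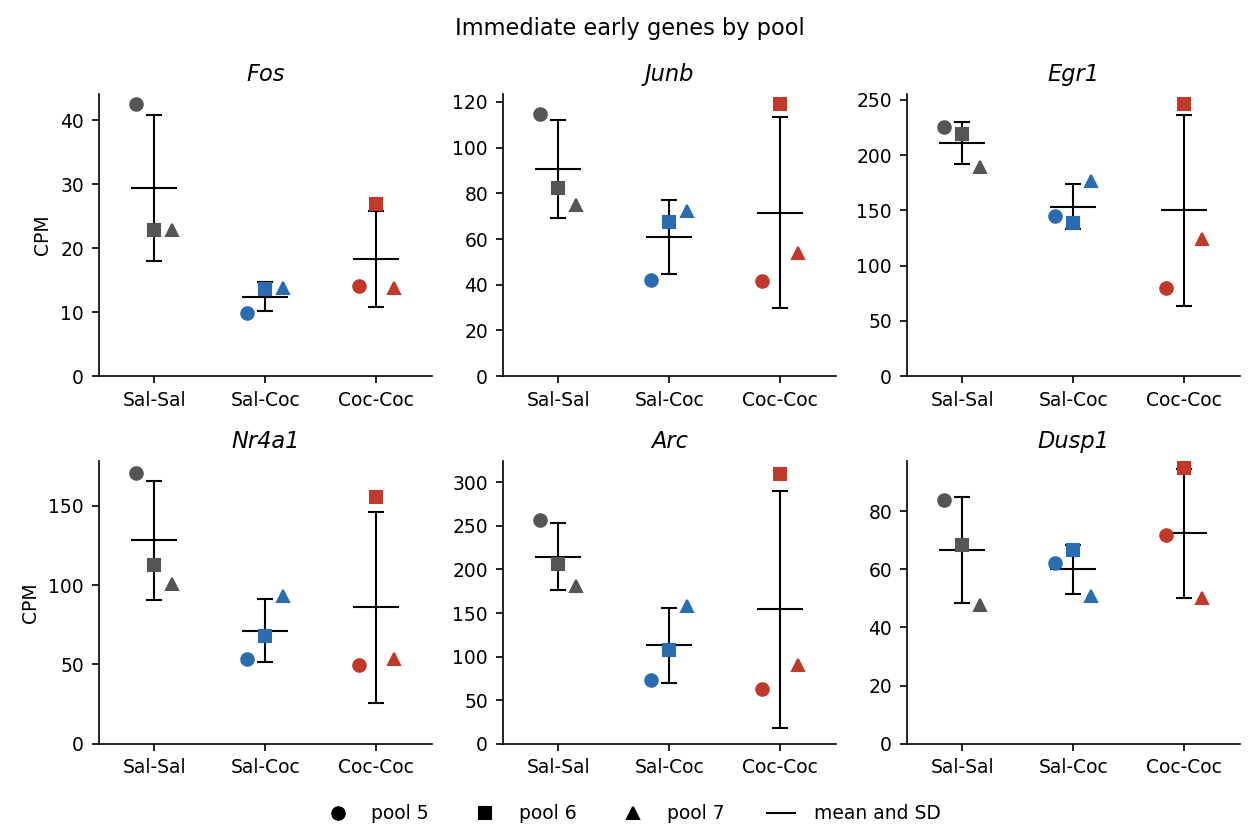
CPM of each gene (vertical axes, linear, from 0) in the 3 pools of Sal-Sal, Sal-Coc and Coc-Coc, with the symbol giving the pool number and bars the group mean and SD (n = 3 pools). Sal-Coc symbols sit below all Sal-Sal symbols for every gene except Dusp1, and Coc-Coc pool 6 (square) sits far above Coc-Coc pools 5 and 7 for Junb, Egr1, Nr4a1 and Arc.

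A day after a single last day of cocaine, 5 of the 6 genes were lower than in saline rats without overlap of pools, the exception being Dusp1. Over all tested genes, 9.51% were lower without overlap in this comparison. The 5 genes varied together over pools (median Pearson's r of 0.898 among their pairs), so counts of them are not counts of separate observations. Mean levels in Sal-Coc were 42.3% of the Sal-Sal mean for Fos, 52.7% for Arc, 55.6% for Nr4a1, 67% for Junb and 72.6% for Egr1, against 90% for Dusp1. None of these differences passed the threshold of an adjusted p of 0.05. The median log2 fold change of the 6 genes was -0.71, against 0.01 over all tested genes, of which 47.0% were lower. The log2 fold change was below 0 for all 6.

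Fos had a log2 fold change of -1.24 ± 0.31 (SE), with a 95% interval from -1.93 to -0.55. Its unadjusted p was 0.00255 and its adjusted p was 0.416 (edgeR's quasi-likelihood test, Benjamini-Hochberg over all tested genes). In the fit to all 9 pools, Fos was the only one of the 6 genes with an unadjusted p under 0.05, where 5.01% of tested genes were lower at that level, and 0.611% of genes had a p as small. In leaving out each of the 9 pools in turn, its log2 fold change stayed between -1.39 and -0.87 and its unadjusted p between 0.000537 and 0.0124. It was nearest to 0 without saline pool 5, the highest pool.

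In the fit to all 9 pools, the intervals of the other 5 genes included 0. Arc had a log2 fold change of -0.92 ± 0.51 (interval -2.06 to 0.21) and Nr4a1 of -0.85 ± 0.41 (interval -1.76 to 0.07). Junb had -0.58 ± 0.36 (interval -1.37 to 0.22) and Egr1 had -0.46 ± 0.32 (interval -1.17 to 0.24). The width of these 4 intervals depended on the Coc-Coc pools, which share the estimate of spread. Dusp1 had -0.15 ± 0.24 (interval -0.68 to 0.38). Their adjusted p ran from 0.650 for Nr4a1 to 0.918 for Dusp1 by edgeR's quasi-likelihood test. With each pool left out in turn, the log2 fold change ran from -1.25 to -0.69 for Arc, from -1.08 to -0.58 for Nr4a1, from -0.72 to -0.37 for Junb and from -0.58 to -0.40 for Egr1, all below 0. Of all tested genes, 0% passed by edgeR, while 1265 had an unadjusted p under 0.05. DESeq2 called 59 genes (0.389%) and 0 of the 6, with an adjusted p of 0.137 for Fos.

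When the fit held only the 6 pools of Sal-Sal and Sal-Coc, 5 of the 6 genes were lower at an unadjusted p under 0.05, against 7.26% of tested genes. The log2 fold changes were nearly the same and the intervals narrower. The interval ran from -1.77 to -0.69 for Fos, from -1.45 to -0.39 for Arc, from -1.35 to -0.34 for Nr4a1, from -1.03 to -0.12 for Junb and from -0.69 to -0.24 for Egr1, none of which held 0. Dusp1 had an interval from -0.55 to 0.25. Unadjusted p-values of the 5 genes ran from 0.000544 for Fos to 0.0193 for Junb, and their adjusted p-values from 0.154 to 0.309 by edgeR's quasi-likelihood test, so none passed the threshold. With all groups in the fit but Coc-Coc pool 6 left out, 5 genes were lower at an unadjusted p under 0.05 (5.32% of tested genes), and with Coc-Coc pool 5 left out, 4 were (7.08%). With any other single pool left out, Fos was the only one of the 6 genes at that level. Without saline pool 5, unadjusted p-values were 0.218 for Arc, 0.228 for Nr4a1, 0.294 for Egr1 and 0.373 for Junb by edgeR's quasi-likelihood test. In that fit, 889 of 16095 tested genes had an unadjusted p under 0.05, in either direction.

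After repeated cocaine, the Coc-Coc pools of every one of the 6 genes overlapped with the Sal-Sal pools, against 6.06% of tested genes that were lower without overlap and 6.5% that were higher. Mean levels were 62.2% of the Sal-Sal mean for Fos, 67.2% for Nr4a1, 71.2% for Egr1, 71.8% for Arc, 78.9% for Junb and 109% for Dusp1. The Coc-Coc means stand for pools that disagreed, since Arc was at 29.0% and 42.0% of the saline mean in pools 5 and 7 and at 144% in pool 6. Fos did so least among the genes with a lower mean, with 48.0%, 91.6% and 47.0% in pools 5, 6 and 7.

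**Figure D2:**
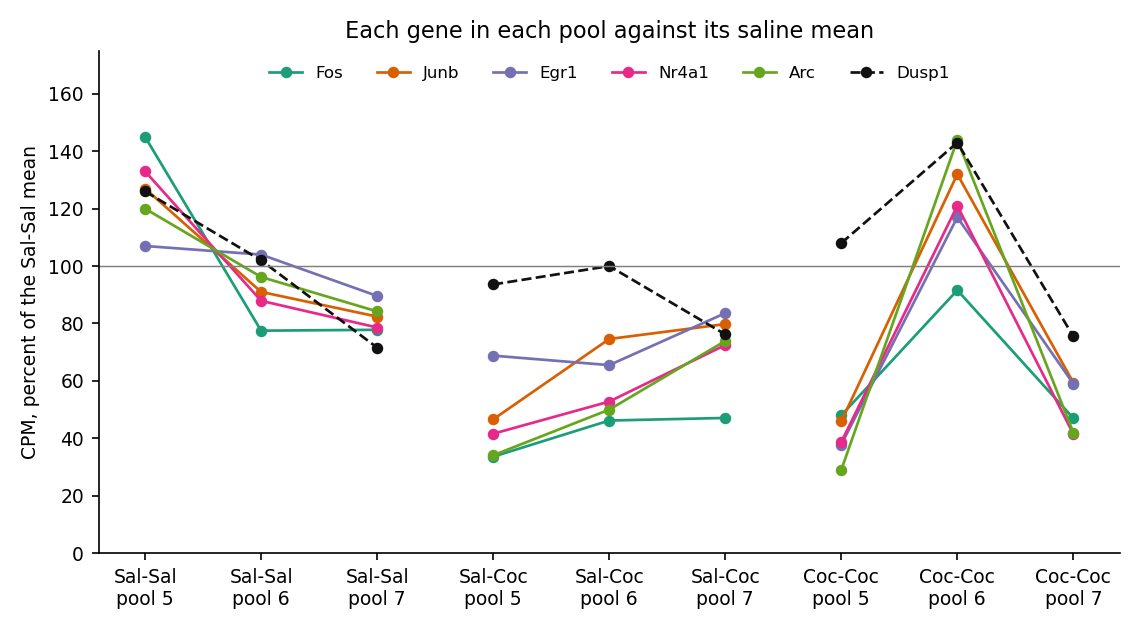
CPM of each gene in each of the 9 pools as a percent of its own Sal-Sal mean (linear axis from 0, grey line at 100), with lines joining the points of a gene within a group only as a guide. Coc-Coc pool 6 is at 91.6% to 144% and Coc-Coc pools 5 and 7 at 29.0% to 59.4% for the genes other than Dusp1, which is dashed.

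Fos had a log2 fold change of -0.68 ± 0.30 in Coc-Coc against Sal-Sal (interval -1.36 to -0.01), with an unadjusted p of 0.0482 and an adjusted p of 0.687 by edgeR's quasi-likelihood test. It was the 1 gene of the 6 with an unadjusted p under 0.05, a level at which 3.31% of tested genes were lower. That p was under 0.05 in 11 of 20 alternatives, and it was 0.0730 by DESeq2, 0.0716 in the fit to the 6 pools compared and 0.276 without saline pool 5. Nr4a1 had -0.57 ± 0.41 (interval -1.49 to 0.34), Egr1 had -0.49 ± 0.32 (interval -1.19 to 0.21) and Arc had -0.48 ± 0.51 (interval -1.60 to 0.65). Junb had -0.34 ± 0.35 (interval -1.13 to 0.45). Dusp1, at 0.12 ± 0.24 (interval -0.41 to 0.65), was the only gene with a value above 0. The median over the 6 genes was -0.48, against 0.01 over all tested genes. Adjusted p-values were 0.687 to 0.909 by edgeR. Of all tested genes 0% passed by edgeR, with 1141 at an unadjusted p under 0.05, and DESeq2 called 24 genes (0.145%) and 0 of the 6.

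The size of this comparison turned on single pools. Without saline pool 5, the log2 fold change was -0.32 for Fos and -0.31 for Nr4a1. Without Coc-Coc pool 6, the log2 fold change was -1.50 for Arc, -1.33 for Nr4a1, -1.08 for Fos, -1.06 for Egr1 and -0.93 for Junb. By edgeR's quasi-likelihood test, unadjusted p-values of these 5 genes were then 0.000253 for Egr1 to 0.00437 for Junb. In that fit, 1897 of 16077 tested genes had an unadjusted p under 0.05, in either direction. Adjusted p-values of the 5 genes were 0.125 to 0.287, still short of the threshold. Without Coc-Coc pool 5, which stood apart over all genes, the values were -0.10 for Arc, -0.06 for Junb, -0.18 for Egr1, -0.29 for Nr4a1 and -0.52 for Fos. Dusp1 was then at 0.13. Pool 5 was the lowest of the 9 pools for Junb, Egr1, Nr4a1 and Arc, and its part in these results beyond these values was not tested. Pool 6 of Coc-Coc did not stand apart over all genes, with a best Spearman correlation of 0.9967.

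The comparison of Coc-Coc with Sal-Coc sets repeated against a single day of cocaine. Pools of all 6 genes overlapped, where 10.6% of tested genes did not. Fos had a log2 fold change of 0.55 ± 0.31 (interval -0.14 to 1.24) and Arc of 0.45 ± 0.51 (interval -0.68 to 1.58). Nr4a1 had 0.27 ± 0.41 (interval -0.64 to 1.19), Dusp1 had 0.27 ± 0.24 (interval -0.26 to 0.80) and Junb had 0.24 ± 0.36 (interval -0.56 to 1.03). Egr1 was near 0 at -0.03 ± 0.32 (interval -0.73 to 0.68). The median was 0.27 against 0.01 over all tested genes. None of the 6 genes had an unadjusted p under 0.05, against 6.93% of tested genes, and adjusted p-values were 0.692 to 0.989 by edgeR's quasi-likelihood test. Of all tested genes 0% passed, with 1100 at an unadjusted p under 0.05, and DESeq2 called 2 genes (0.00857%).

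Leaving out Coc-Coc pool 6 turned the direction for Arc, Nr4a1 and Junb. Without it, the log2 fold change was -0.57 for Arc, -0.48 for Nr4a1, -0.35 for Junb and -0.59 for Egr1, while Fos stayed above 0 at 0.16 and Dusp1 at 0.02. Without Coc-Coc pool 5 it was 0.71 for Fos, 0.82 for Arc, 0.55 for Nr4a1, 0.51 for Junb, 0.28 for Egr1 and 0.28 for Dusp1. The 3 comparisons share pools, so their values are not independent of each other: the Sal-Sal pools enter both comparisons with saline, and the Sal-Coc and Coc-Coc pools each enter 2 comparisons.

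**Figure D3:**
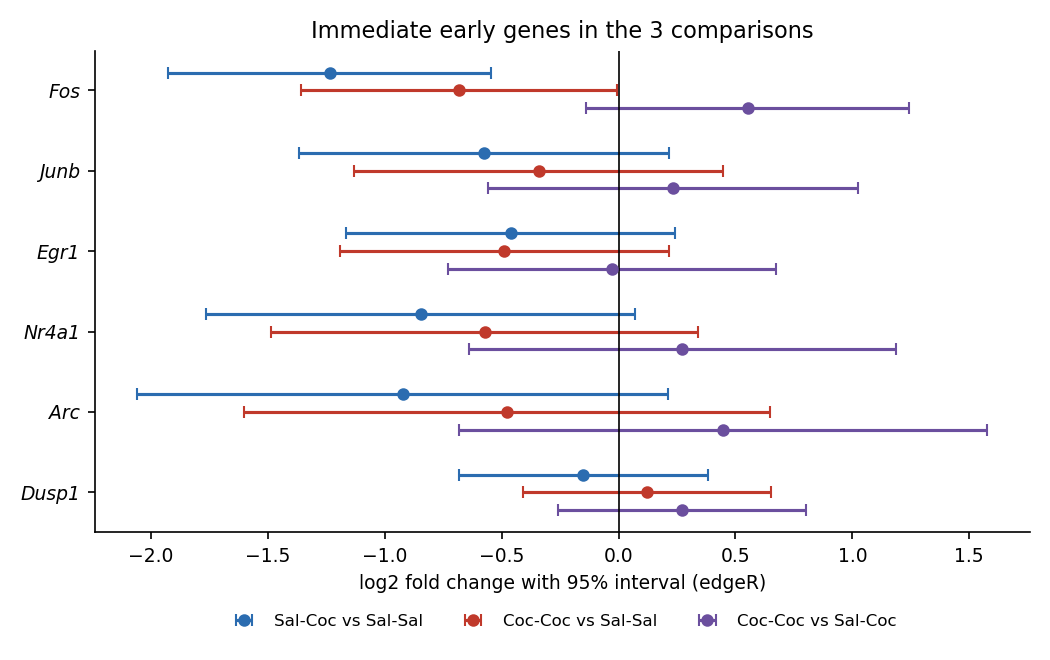
Log2 fold change (horizontal axis) with its 95% interval from edgeR for each gene in the 3 comparisons, which share pools. The interval for Fos excludes 0 in Sal-Coc against Sal-Sal (-1.93 to -0.55) and narrowly in Coc-Coc against Sal-Sal (-1.36 to -0.01), all before adjustment, and every other interval includes 0 in this fit to all 9 pools.

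In a single test for any difference among the 3 groups, Fos had an unadjusted p of 0.00771 and an adjusted p of 0.665 (edgeR's quasi-likelihood test on 2 coefficients). The remaining 5 genes had unadjusted p-values from 0.153 for Nr4a1 to 0.544 for Dusp1. Of tested genes, 7.36% had an unadjusted p under 0.05 and 0% passed after adjustment. DESeq2's likelihood ratio test called 65 genes (0.404%) and gave Fos an adjusted p of 0.301.

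In the fit to all 9 pools, the 6 genes varied between pools of a group more than nearly all other genes of their level. The biological coefficient of variation, the spread between pools beyond counting error as estimated by edgeR, was 42.2% for Arc, 34.6% for Nr4a1, 30.04% for Junb, 26.9% for Egr1, 26.0% for Fos and 20.6% for Dusp1. Among genes within 0.5 log2 CPM of each, these lay at percentiles 99.1 to 100, where the median was 7.85% to 9.28%. Arc was at the top of 1067 genes of like level. These values describe the same pools as the tests above, and a wide spread also widens the intervals of those tests. Spread within single groups was ranked by the SD of log2 CPM among all tested genes, whatever their level. Those percentiles are therefore not comparable with the ones for genes of like level. Over all 9 pools that SD was at percentile 93.8 for Egr1 and 83.0 for Dusp1. Egr1 reached 97.5 among the Coc-Coc pools, but only 62.0 among the saline pools and 70.1 among those of Sal-Coc. Dusp1 was at 93.25 among the saline pools, 89.0 for Coc-Coc and 73.7 for Sal-Coc.

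**Figure D4:**
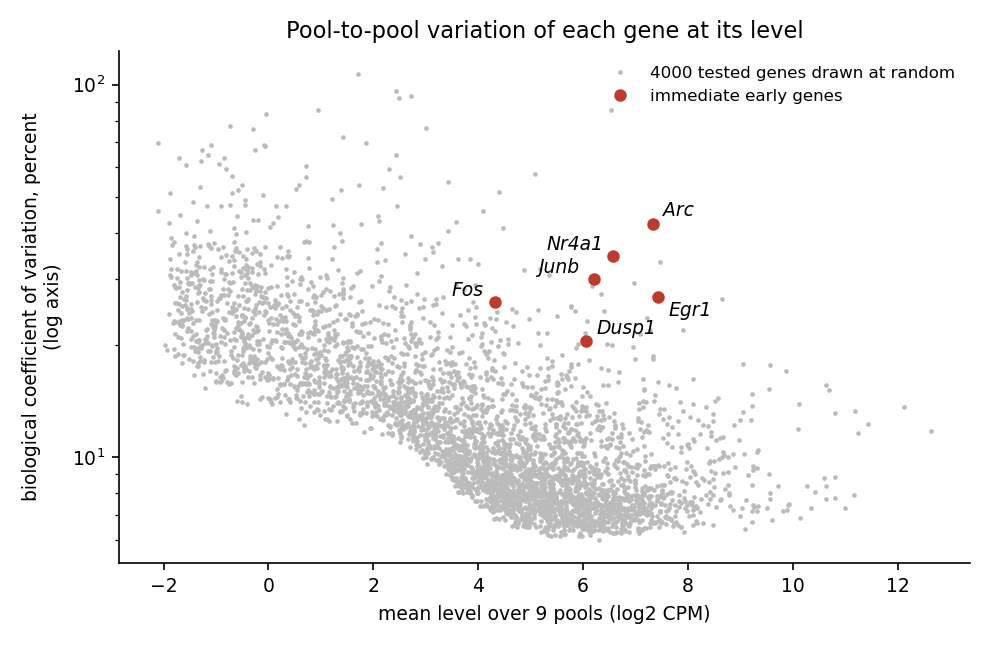
Biological coefficient of variation (percent, log axis) against mean level (log2 CPM over 9 pools), for a random draw of tested genes in grey and the 6 genes in red. The red points, at 20.6% to 42.2%, sit above nearly all grey points of the same level.

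The spread was not even between groups. Over the 6 genes, the median SD of log2 CPM was 0.81 in Coc-Coc, while Sal-Sal had 0.36 and Sal-Coc 0.34. Over all tested genes the medians were 0.16, 0.10 and 0.12 in the same order. The highest Coc-Coc pool exceeded the lowest 4.98-fold for Arc, 3.14-fold for Nr4a1, 3.09-fold for Egr1 and 2.87-fold for Junb. The ratio was 1.95-fold for Fos and 1.89-fold for Dusp1. Without Coc-Coc pool 5 these ratios were 3.44-fold for Arc, 2.92-fold for Nr4a1, 1.98-fold for Egr1 and 2.21-fold for Junb. Without Coc-Coc pool 6 they were 1.45-fold, 1.07-fold, 1.56-fold and 1.295-fold. The median SD of the 6 genes in Coc-Coc was 0.75 without pool 5 and 0.31 without pool 6, where all tested genes had 0.10 and 0.17. In Sal-Sal the same ratio was 1.42-fold for Arc and 1.19-fold for Egr1, whereas Fos already differed 1.87-fold among saline pools. Over all 9 pools the median SD of the 6 genes was 0.60, and it was 0.57 without Coc-Coc pool 5 and also without Coc-Coc pool 6. Of the pools left out in turn, saline pool 5 gave the lowest value, 0.51. The difference in spread between groups was not tested.

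The genes other than Dusp1 moved together over pools. Among their 10 pairs, Pearson's r of log2 CPM over the 9 pools was 0.687 to 0.978 with a median of 0.898, highest between Nr4a1 and Arc. Between Dusp1 and each of the other 5 genes it was 0.276 to 0.508. After subtraction of group means, so that differences between groups no longer counted, the 10 pairs had r of 0.688 to 0.970 and the 5 pairs with Dusp1 0.397 to 0.689. Without Coc-Coc pool 6 the 10 pairs kept r of 0.641 to 0.973, and without Coc-Coc pool 5 of 0.823 to 0.978. The pairs with Dusp1 were at 0.014 to 0.413 without pool 6 and at 0.563 to 0.663 without pool 5. These values are descriptive, since the genes of a pool share its library, its depth and its rats.

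**Figure D5:**
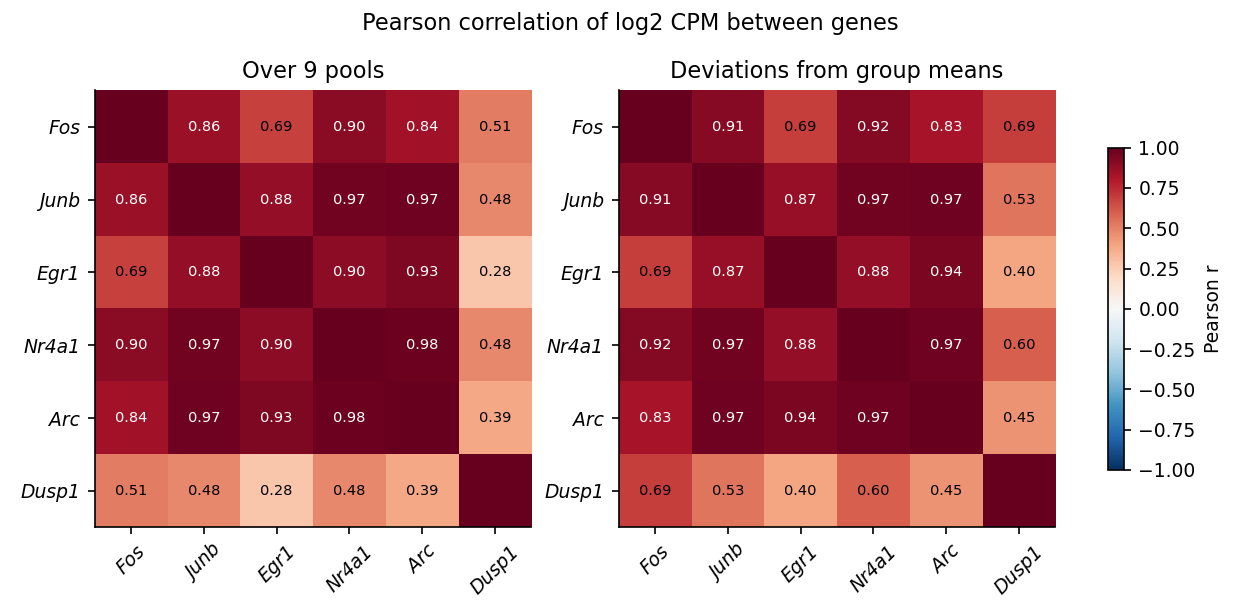
Pearson's r of log2 CPM between each pair of the 6 genes, over 9 pools (left) and after subtraction of group means (right), with color from -1 (blue) to 1 (red). The block of Fos, Junb, Egr1, Nr4a1 and Arc is at 0.687 or above in both panels, and the Dusp1 row and column at 0.276 to 0.689.

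The order of pools was likewise shared. Coc-Coc pool 6 ranked highest of the 9 pools for Junb, Egr1, Arc and Dusp1 and second for Fos and Nr4a1, for which saline pool 5 was highest. Saline pool 5 ranked first or second for all 6 genes. Among the Sal-Coc pools, pool 7 was the highest for Fos, Junb, Egr1, Nr4a1 and Arc and the lowest for Dusp1. Within Sal-Sal, pool 5 exceeded pool 7 for all 6 genes, by least for Egr1 at 107% against 89.6% of the group mean.

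Among 11372 other genes of at least 5 CPM, those most like the 6 in pattern were chosen by Pearson's r, over the 9 pools, with the mean of the 6 genes each scaled to the same mean and SD. ENSRNOG00000023896 was the most similar at r of 0.964, with 32.2, 23.0 and 25.2 CPM in Sal-Sal pools 5, 6 and 7, 16.1, 18.3 and 21.2 CPM in Sal-Coc and 16.9, 30.6 and 18.1 CPM in Coc-Coc. Its order of groups and its high Coc-Coc pool 6 were those of Fos, Junb, Nr4a1 and Arc, a likeness that the choice by r favours. ENSRNOG00000018949 followed at r of 0.949 over a range of 22.6 to 36.8 CPM. The most opposite were ENSRNOG00000003928 at r of -0.979, although over only 18.4 to 21.3 CPM, and ENSRNOG00000013719 at r of -0.948 over 10.4 to 13.3 CPM. The median r over the genes compared was -0.045, with 13 genes at 0.9 or above and 10 at -0.9 or below. These identifiers had no name in the tables used.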

How the data were processed

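RNA-seq was performed on 36 samples, 9 pools with 4 technical replicates each. The authors prepared stranded poly(A) libraries, used STAR to align trimmed single reads to Ensembl's rat genome, removed reads that mapped more than once and deposited raw counts of reads for each Ensembl gene, without normalization. HTSeq 0.5.3 and bcl2fastq 2.18.0.12 are named in the submitters' processing notes. Whether counting used the strand is not given in the sources used here.

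The 4 counts of a pool were summed, so a pool is 1 replicate. Technical replicates had 7317172 to 9992159 counts. Tests used edgeR 4.0.16 in R 4.3.3: filterByExpr (minimum count 10, minimum total 15), TMM factors (0.9615 to 1.036), all 9 pools in 1 fit of group means with 6 residual and a median of 4.10 prior degrees of freedom, the two-sided quasi-likelihood F-test, and Benjamini-Hochberg adjustment over 15884 genes. CPM was computed from effective library sizes. Standard errors were derived from the F statistic. For correlations, 2 prior counts entered log2 CPM. Intervals of the fits cover the spread between these pools, and the floor of 3 counts covers counting error only. Alternatives were DESeq2 1.42.0, limma 3.58.1 voom, other scalings and filters, other samples in the fit, the pool number as a block, technical replicate a alone and each pool left out. edgeR's likelihood ratio test and DESeq2's test for any difference, and the spread within Coc-Coc with a pool left out, were added after seeing the data.

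The genes named were the 6 immediate early genes in every comparison and, by likeness, the 2 genes with the highest and the 2 with the lowest correlation. The members and lists were chosen with earlier results of these data known. Lists of other immediate early genes and of cell type markers were planned, but 0 of 32402 identifiers matched the RefSeq gene table (GRCr8), so they were not analysed here. Promoter windows were matched by symbol.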

Additional observations from a re-analysis of the deposited data

How the results depend on the processing

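Over 360 recomputed log2 fold changes of the 6 genes, 351 kept their direction, and 1 passed the threshold: Fos in Sal-Coc against Sal-Sal by edgeR's likelihood ratio test, which allows less for uncertainty in the spread (log2 fold change -1.24, adjusted p = 0.0342). Adjusted p-values of Fos in that comparison were otherwise 0.137 by DESeq2 and 0.184 to 0.968 with a pool left out. Genes past the threshold in Sal-Coc against Sal-Sal, Coc-Coc against Sal-Sal, Coc-Coc against Sal-Coc and any difference numbered 0 by edgeR's quasi-likelihood test, 59, 24, 2 and 65 by DESeq2, and 56, 21, 1 and 48 by the likelihood ratio test, which called 1 of the 6 genes in Sal-Coc against Sal-Sal. In Coc-Coc against Sal-Sal, 1 gene passed with library totals only and 2 with no filter on low counts. With a pool left out, 0 to 6 genes passed there (4 without Coc-Coc pool 5, 6 without pool 6) and 0 to 3 for any difference (3 without pool 5, 2 without pool 6). None of the 6 genes passed with library totals, with no filter or with a pool left out. The cause was not tested.

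Directions turned only with a pool left out. The other alternatives reused the pools of the comparison, so they do not show how far a direction depends on a single pool. In Coc-Coc against Sal-Coc, the log2 fold change ran from -0.59 to 0.28 for Egr1 (0.09 without Sal-Coc pool 7 and also without Coc-Coc pool 7), from -0.35 to 0.51 for Junb, from -0.48 to 0.55 for Nr4a1 and from -0.57 to 0.82 for Arc. For Dusp1 it ran from -0.34 to 0.049 in Sal-Coc against Sal-Sal, above 0 without saline pool 5, and from -0.13 to 0.32 in Coc-Coc against Sal-Sal, below 0 without saline pool 7 (-0.07) or Coc-Coc pool 6.

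When the fit held the pool number as a replicate block, 0 genes passed in any comparison, and 1129, 1079 and 1046 genes had an unadjusted p under 0.05. Same-numbered pools were different rats. Taken over all tested genes, the correlation of their deviations was -0.121, -0.0325 and 0.0832 in the 3 comparisons, so the numbers were not treated as pairs. These values cannot decide whether a number carries a shared effect on single genes, which was not tested. The block changed no call among the 6 genes. Depth limits these genes little, since each had at least 288 counts in every pool. The spread between the 3 pools of a group limits what the tests can show.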
